A study of Rattus norvegicus with 8 samples.

Results

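The miRNAs described here are miR-375 and the miRNAs of the miR-183 cluster, which in rat are miR-183, miR-96 and miR-182. They were chosen by name from a rat miRNA array, and 7 mature miRNAs of the 758 on the array matched. These were rno-miR-375-3p, rno-miR-375-5p, rno-miR-183-5p, rno-miR-183-3p, rno-miR-96-5p, rno-miR-96-3p and rno-miR-182 (the prefix marks rat and is left out below), read by 18 of the 1806 probes. The arrays held RNA of prostatic urethral tissue from male SD (Sprague Dawley) rats, 10 to 12 months old, taken 5 days after the operation. The TULP rats had undergone a simulated transurethral laser prostatectomy (TULP), in which the lining of the prostatic urethra was vaporized with a thulium laser. For this the bladder was opened and an endoscope was passed into the urethra. The sham operation was described as an abdominal incision only, so the laser cannot be told apart from these other steps. Each group held 4 rats with 1 array each, and the tissue was not sorted into cell types. The sample descriptions of the TULP group speak of sham surgery, whereas its titles, source and treatment labels speak of trauma, and the titles were followed.

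miR-375 is known as a miRNA of secretory and endocrine epithelium, abundant in pancreatic islets and in luminal cells of the prostate. The miR-183 cluster is best known from sensory cells of the retina, the inner ear and the olfactory epithelium, and it is also raised in several epithelial tumours. A miRNA binds messenger RNAs mainly through its seed, a short stretch near its 5′ end, and the miRNAs of the cluster, which are made from a shared precursor transcript, have much alike 5′ ends. In whole tissue, fewer cells of a type and less RNA per cell cannot be told apart.

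The 4 strands that carry the results are shown 5′ to 3′ with the seed, bases 2 to 8, in capitals. They were taken from RefSeq (GRCr8), which held all 7 members.
miR-375-3p: uUUGUUCGuucggcucgcguga
miR-183-5p: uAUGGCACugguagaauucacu
miR-96-5p: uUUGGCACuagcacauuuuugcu
miR-182: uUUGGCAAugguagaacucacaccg
No other rat miRNA of the RefSeq table had the seed of any of the 7 members, and no 2 members had the same seed. Counted base by base from the 5′ end, miR-183-5p and miR-182 had 18 of 22 bases in common and 5 of the 7 seed bases. The seed of miR-96-5p shared 6 of 7 bases with that of miR-183-5p and 6 of 7 with that of miR-182. miR-375-3p shared 2 or 3 of 7 seed bases with each of the others.

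On GRCr8, miR-375-3p lies on the minus strand at chr9:83906591-83906612. The Mir375 gene overlaps the annotated spans of Cryba2, a crystallin gene, and of LOC134480387. On chromosome 4, miR-182 lies at chr4:59752249-59752273, miR-96-5p at chr4:59755901-59755923 and miR-183-5p at chr4:59756106-59756127, all on the minus strand. The 3 genes of the cluster span 3908 bases, with 97 bases between Mir183 and Mir96 and 3533 bases between Mir96 and Mir182. The nearest protein-coding neighbours are Ube2h on the Mir183 side and Nrf1 on the Mir182 side.

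The array reads each miRNA with probes that differ in length by 1 base and pair with its 3′ part, and for miR-375-3p and miR-183-5p a single probe, the longest, carried the signal. The probe that carried the signal of miR-375-3p had 15 bases and paired with bases 8 to 22 of the miRNA, so it covered 1 base of the seed. It is shown with the 19-base probe of miR-183-5p, which paired with bases 4 to 22.
miR-375-3p probe: tcacgcgagccgaac
miR-183-5p probe: agtgaattctaccagtgcc
In the array files these probes lie at chr9:74233551-74233564 and chr4:57075124-57075141 of the older build rn4. The longest unbroken stretch that either probe could pair with in any other rat miRNA of the array was 8 bases. For the 19-base probe of miR-183-5p that stretch lay in miR-182. An unbroken stretch understates this likeness, since miR-183-5p and miR-182 had 18 of 22 bases in common. Pairing of the probe with miR-182 was not tested.

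miR-375-3p was detected in all sham arrays and in a single TULP array. The array software calls a probe detected where its total signal exceeds 3 times its error. The total of the 15-base probe, before any normalization, was 12.0, 19.8, 14.2 and 17.8 in sham replicates 1 to 4 and 13.1, 2.59, 3.06 and 1.20 in TULP replicates 1 to 4. TULP replicate 1 lay within the range of the sham arrays, and the other 3 TULP arrays lay below all of them. Divided by its error, the total of the 3 low arrays was 1.96, 2.23 and 0.95. The software's mark for a spot well above background told the same groups of arrays apart. All 8 spots of the probe carried it on each sham array and on TULP replicate 1, and 0 of 8 did on each of the other TULP arrays.

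The second probe of miR-375-3p, 14 bases long, was far dimmer and was detected on 0 arrays. Its totals were 1.77, 2.00, 1.24 and 1.93 in the sham arrays and 0.840, -0.525, -0.579 and -0.453 in the TULP arrays, where a value below 0 is a signal under the local background. All TULP values lay below all sham values, TULP replicate 1 included. The difference of -1.91 had an exact two-sided permutation p of 0.0286, the smallest that 4 arrays against 4 can give. For the 15-base probe the difference was -10.99 (exact two-sided permutation p = 0.0571). Of all 1806 rat probes, 6.15% had every TULP total below every sham total, and 2 of the 18 member probes did. These totals are not normalized, and without normalization the tested miRNAs as a whole had a median difference of -0.55 on the log2 scale.

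**Figure D1:**
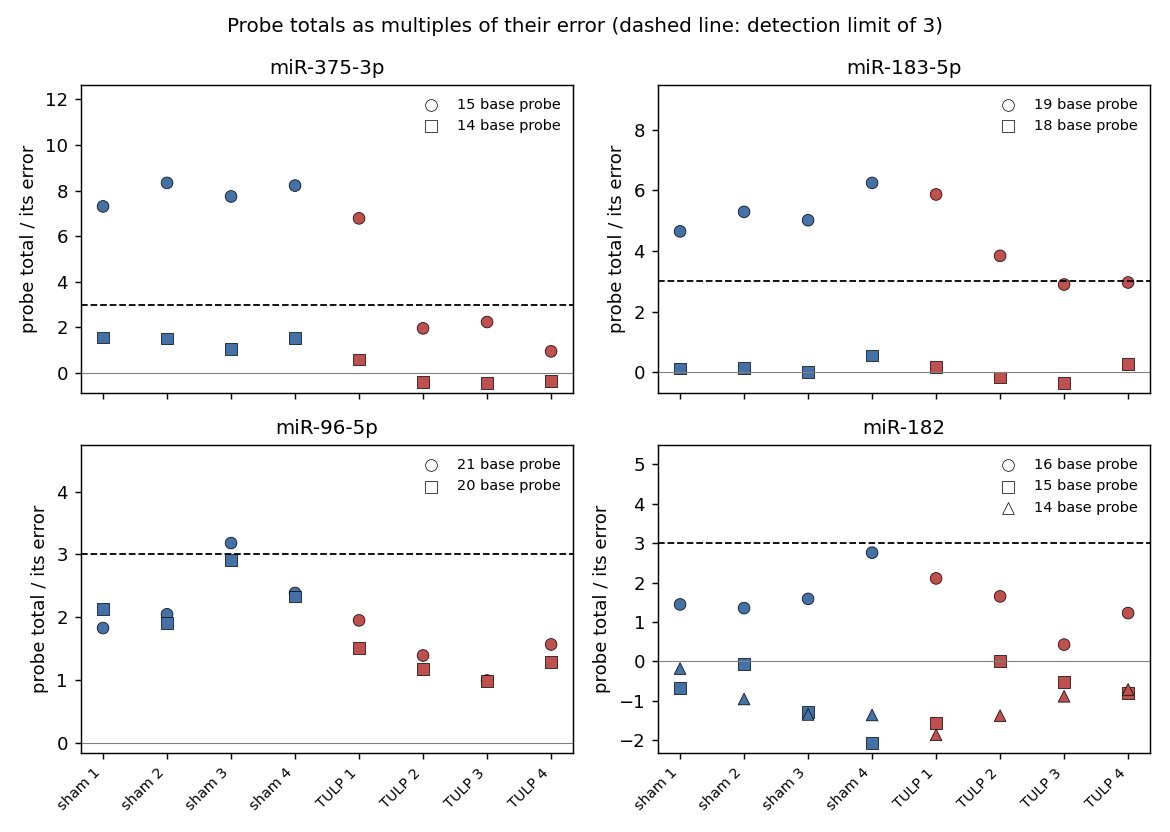
Total signal of each probe divided by its own error (vertical axis, no unit) on each of the 8 arrays, sham in blue and TULP in red, for miR-375-3p, miR-183-5p, miR-96-5p and miR-182. Marker shapes give the probe lengths and the dashed line is the detection limit of 3. The 15-base probe of miR-375-3p exceeds the limit on the sham arrays and TULP replicate 1, while TULP replicates 3 and 4 fall at 2.89 and 2.96 for the 19-base probe of miR-183-5p.

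After quantile normalization, the level of miR-375-3p on the log2 scale was 3.52, 4.05, 3.82 and 3.67 in the sham arrays and 4.05 in TULP replicate 1. TULP replicates 2, 3 and 4 were given the floor of 0.96, the value used for a miRNA below detection. The groups overlapped through TULP replicate 1 alone. Of the tested miRNAs, 29.1% had groups that did not overlap, 14.6% with TULP below sham, and 0 of the 2 tested members did. Over 4 arrays each, sham averaged 3.77 ± 0.23 (SD) and TULP 1.73 ± 1.55 (SD). The difference of -2.03 (SE 0.71) did not pass the threshold in limma (adjusted p = 0.0675, unadjusted p = 0.0222). Both thresholds together, an adjusted p under 0.05 and more than 2-fold, called 9.27% of the 151 tested miRNAs (3.97% as lower in TULP), and 0 of the 2 tested members were among them. At the adjusted p alone 30.5% passed (16.6% as lower), again with 0 of the 2 members. Of all 758 rat miRNAs, 19.9% were detected on at least 4 of 8 arrays and so were tested. miR-375-3p reached these 4 arrays through the sham group, where it was higher, so that its presence among the tested miRNAs is not independent of its difference.

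In the fit over single probes, where 32.3% of 251 tested probes (13.9% of 1806) passed the adjusted p (16.3% as lower) and 9.16% also the 2-fold limit, the 15-base probe passed both. Its difference was -2.05 (SE 0.65, limma adjusted p = 0.0437). The probe, too, reached the tested set through the sham group, so this call is not independent of that filter. Its TULP values other than that of TULP replicate 1 were at the floor. The probe lost the call when any array other than TULP replicate 1 was left out and when all probes were tested. Detection itself, on 4 of 4 sham arrays and 1 of 4 TULP arrays, gave a two-sided Fisher's exact p of 0.143.

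Without TULP replicate 1, the difference of miR-375-3p was -2.76 (SE 0.14, limma adjusted p = 7.54e-05). The 3 remaining TULP arrays then all stood at the floor and had no spread of their own. The size of this difference is set by the floor, and the array left out was the only TULP array where miR-375-3p was detected. In this setting 22.5% of all tested miRNAs passed the adjusted p as lower, and 10 of the 151 passed both thresholds as lower. Before normalization, the 15-base probe averaged 2.28 in these 3 arrays and 16.0 in the sham arrays. TULP replicate 1 also stood apart in the marker lists. Its summed normalized level of epithelial miRNAs was 921, against 387 to 465 in the other TULP arrays and 475 to 661 in the sham arrays, and its number of detected miRNAs was 136, against 146 to 156 on the other arrays. Its sums were also the lowest of the 8 arrays for striated muscle (2639, others 3919 to 5659) and the highest for smooth muscle (1315, others 634 to 928). The sums are of linear values, so the brightest miRNAs weigh most, here miR-200b-3p (9.29 on the log2 scale) and miR-143-3p (10.3). Of the tested epithelial miRNAs, miR-200a-3p (6.42) and miR-141-3p (5.13) lay within the sham range on this array, and the others above it. The part of these differences in the result was not tested.

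**Figure D2:**
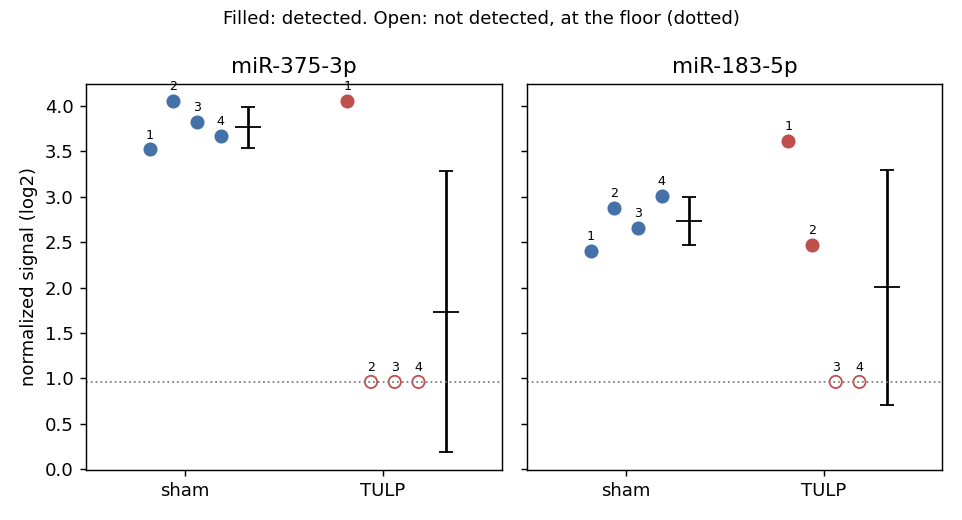
Normalized signal (log2, vertical axis) of miR-375-3p and miR-183-5p in each sham (blue) and TULP (red) array, numbered by replicate. Filled points were detected, open points were not and lie at the floor of 0.96 (dotted line), and the bars give mean ± SD (n = 4). For miR-375-3p TULP replicate 1 lies at 4.05 with the sham arrays, and the other TULP arrays lie at the floor.

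miR-183-5p was dimmer and was detected in all sham arrays and in TULP replicates 1 and 2. The total of its 19-base probe was 5.90, 8.14, 6.69 and 9.92 in the sham arrays and 10.3, 5.42, 4.05 and 3.91 in the TULP arrays. The highest of all 8 values was that of TULP replicate 1, and the other 3 TULP arrays lay below the lowest sham array. TULP replicates 3 and 4 missed detection by little, with totals of 2.89 and 2.96 times their error. Of 8 spots, 4, 7, 7 and 8 were well above background in the sham arrays, and 8, 1, 0 and 0 in the TULP arrays. The 18-base probe, 1 base shorter, gave totals between -0.474 and 0.673 and was detected on 0 arrays.

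On the normalized log2 scale, the level of miR-183-5p was 2.40, 2.88, 2.66 and 3.00 in the sham arrays and 3.62, 2.47, 0.96 and 0.96 in the TULP arrays, the last 2 at the floor. The groups overlapped. Over 4 arrays each, sham averaged 2.74 ± 0.26 (SD) and TULP 2.00 ± 1.29 (SD). The difference of -0.74 (SE 0.60) was within the spread between arrays (limma adjusted p = 0.446), and detection gave a two-sided Fisher's exact p of 0.429. Without TULP replicate 1 it was -1.24 (SE 0.39, limma adjusted p = 0.0456), past both thresholds. The array left out held the highest value of all, so leaving it out lowers the TULP mean by construction. In that setting 22.5% of all tested miRNAs passed the adjusted p as lower, and 10 of the 151 passed both thresholds as lower. Detection on the 4 sham arrays alone brought miR-183-5p into the tested set, so its presence there is not independent of its difference. Leaving out any other single array gave limma adjusted p-values of 0.403 to 0.743.

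For miR-183-5p the direction depended on which total was used. The total per miRNA stored by the array software was 288 and 272 in TULP replicates 1 and 2, where the probe totals were 10.3 and 5.42. In the sham arrays it was 14.2 to 47.0. With the stored totals the difference was 0.27 (SE 1.78, limma adjusted p = 0.919), and the sign was turned.

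Of the other cluster miRNAs, miR-96-5p was detected in sham replicate 3 and on 0 other arrays. The total of its 20-base probe was 2.46, 2.55, 3.52 and 2.97 in the sham arrays and 2.16, 1.55, 1.32 and 1.64 in the TULP arrays. Every TULP value lay below every sham value, with TULP replicate 1 the closest to them. The difference of -1.20 had an exact two-sided permutation p of 0.0286, the smallest possible, and each total was under 3 times its error. The 21-base probe overlapped, with 2.10 to 3.87 in the sham arrays and 1.33 to 2.81 in the TULP arrays (difference -0.94, exact two-sided permutation p = 0.0857). Among the 1555 probes detected on fewer than 4 arrays, 2.25% had all TULP totals below all sham totals. These totals, which also set the detection calls, are not normalized. Without normalization the tested miRNAs as a whole had a median difference of -0.55 on the log2 scale. The part of that shift in the miR-96-5p values was not tested. With the detection limit lowered to 2 times the error, miR-96-5p was detected in 4 of 4 sham and 0 of 4 TULP arrays. The share of all miRNAs with this pattern was not counted. On TULP replicate 1 the 21-base probe reached 1.95 times its error. At this lower limit miR-183-5p was detected on all 8 arrays and miR-375-3p on 4 sham and 2 TULP arrays. miR-182 was then detected on 1 sham and 1 TULP array. With the limit at 5 times the error, miR-96-5p was detected on 0 arrays.

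miR-182 was detected on 0 of the 8 arrays. Its brightest probe, of 16 bases, had totals of 1.03, 1.11, 1.16 and 2.22 in the sham arrays and 1.91, 1.36, 0.357 and 0.976 in the TULP arrays. The groups overlapped, and the difference of -0.23 was within the spread (exact two-sided permutation p = 0.600). Each miRNA is cut from a hairpin as a duplex, and the opposite strands of the duplexes, miR-375-5p, miR-183-3p and miR-96-3p, were also detected on 0 arrays. Their probe totals ranged from -2.46 to 0.195. A difference in these 4 miRNAs was not detectable at this signal, which does not show that they were absent from the tissue. The permutation test of raw totals was run for all 18 member probes, and its p-values are not adjusted.

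As a share of the summed signal of all detected miRNAs on the same array, miR-375-3p held 0.0572%, 0.0784%, 0.0484% and 0.0478% in the sham arrays and 0.0672% in TULP replicate 1, with 0 counted where it was not detected. The mean share was 0.0580% ± 0.0143 (SD, n = 4) and 0.0168% ± 0.0336 (SD, n = 4), an exact two-sided permutation p of 0.114. miR-183-5p held 0.0274% ± 0.00385 in the sham group and 0.0210% ± 0.0258 in the TULP group (SD, n = 4 each, exact two-sided permutation p = 0.686). The highest share of either was 0.0784% with these rebuilt totals. With the stored totals the difference in share of miR-183-5p was 0.484 percentage points, and its sign was turned.

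miRNAs of other cell types were read from lists on the same arrays. Of 12 epithelial miRNAs, 6 were tested, namely the 5 of the miR-200 family and miR-205, a miRNA of basal and squamous epithelium. Their median difference was -0.63, against -0.02 over all tested miRNAs, and 0 of 6 passed the adjusted p. Without TULP replicate 1, 3 of the 6 passed as lower, against 22.5% of all tested miRNAs, and miR-200c-3p differed by -1.99 (SE 0.19, limma adjusted p = 0.00113). With all arrays they ranged from -1.46 for miR-200c-3p (SE 0.54, limma adjusted p = 0.0753) to 0.01 for miR-429. The median kept its sign under each of the 7 scalings and signals tried, at -0.16 to -1.26, and 5 of the 6 passed as lower when signals were scaled to spike-ins added before labelling (median of all tested miRNAs then -0.78, with 54.3% of them passing as lower). The epithelial list counts 4 members detected on no array, among them miR-192-5p and miR-194-5p of intestinal epithelium.

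The 12 miRNAs of the neural and endocrine list, among them miR-7a-5p of endocrine cells and miR-124-3p of neurons, were detected on 0 of the 8 arrays. This does not show that they were absent from the tissue, and the cell type behind the miR-375-3p signal was not tested. Of the leukocyte list, 7 of 8 were tested and 3 passed, all higher in the TULP group, against 13.9% of all tested miRNAs. In this list miR-150-5p went the other way, with every TULP array below every sham array (difference -0.59, limma adjusted p = 0.0737). Such a separation was seen in 14.6% of all tested miRNAs. The summed normalized level of the list was 86.2 to 126 in the sham arrays and 189 to 282 in the TULP arrays, with TULP replicate 1 the lowest of these. Of the striated muscle list, 4 of 7 were tested and 3 passed as lower, against 16.6% of all tested miRNAs. The other tested member, miR-206-3p, went the other way (difference 0.25, limma adjusted p = 0.795). Without TULP replicate 1, 1 of the 4 passed as higher and 3 as lower, against 24 and 34 of the 151 tested miRNAs. Of the smooth muscle miRNAs, 0 of the 2 tested passed. The part of these cell types in the member values was not tested.

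Set against the mean of the 6 epithelial miRNAs on the same array, miR-375-3p differed from it by -2.41, -1.90, -2.22 and -1.97 in the sham arrays and by -2.16, -4.43, -3.97 and -3.80 in the TULP arrays. The 3 TULP arrays without detection lay apart from all others, and their values are set by the floor. This floor of 1.94 is below the totals of 2.59 and 3.06 that the 15-base probe gave before normalization in TULP replicates 2 and 3, so the values are not limits. The difference between the groups was -1.46 (exact two-sided permutation p = 0.0857). Without TULP replicate 1 it was -1.94 (exact two-sided permutation p = 0.0286, the smallest possible with 3 arrays against 4). That array was the only TULP array where miR-375-3p was detected. The full separation and this p therefore follow from leaving it out. For miR-183-5p the same difference was -0.17 (exact two-sided permutation p = 0.714), and it turned to 0.0081 without sham replicate 4 and to 0.051 without TULP replicate 3. The mean of the miR-200 family alone was 6.18 ± 0.25 in the sham group and 5.63 ± 0.61 in the TULP group (SD, n = 4 each), a difference of -0.55 (exact two-sided permutation p = 0.200).

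The miRNAs whose levels followed those of the members most closely over the 8 arrays were found by Pearson's correlation among the tested miRNAs. For miR-375-3p they were miR-200c-3p (r = 0.966), miR-200a-3p (r = 0.931), miR-26a-5p (r = 0.906), miR-30a-3p (r = 0.901) and miR-29c-3p (r = 0.899). miR-200c-3p, which acts with miR-200a-3p in keeping epithelial cells epithelial, had levels of 4.69, 4.61, 4.47 and 4.22 in the sham arrays and 4.71, 2.86, 2.56 and 2.00 in the TULP arrays. TULP replicate 1 was again at the sham level. Unlike miR-375-3p, miR-200c-3p was detected on all 8 arrays, so that its 3 low values were measured rather than set by the floor. Of these 5 miRNAs, miR-30a-3p passed the adjusted p (difference -0.90, limma adjusted p = 0.00709).

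For miR-183-5p the closest were miR-205 (r = 0.985), miR-652-3p (r = 0.924), miR-26a-5p (r = 0.874), miR-145-5p (r = 0.866) and miR-10a-5p (r = 0.849). miR-205 had levels of 4.24, 4.48, 4.41 and 4.74 in the sham arrays and 4.82, 4.24, 2.97 and 3.12 in the TULP arrays. Its low arrays were TULP replicates 3 and 4, the pair in which miR-183-5p was below detection, and its difference was -0.68 (limma adjusted p = 0.285). After normalization, TULP replicate 2 was below all sham arrays for miR-375-3p and miR-200c-3p, and within their range for miR-183-5p (2.47) and miR-205 (4.24). Before normalization its 19-base probe total for miR-183-5p, 5.42, was below all sham arrays, and the detection limit lies between it and the totals of TULP replicates 3 and 4. These correlations describe 8 arrays of 2 groups that share 1 slide and 1 normalization, several values of the members lie at the floor, and no p is given.

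**Figure D3:**
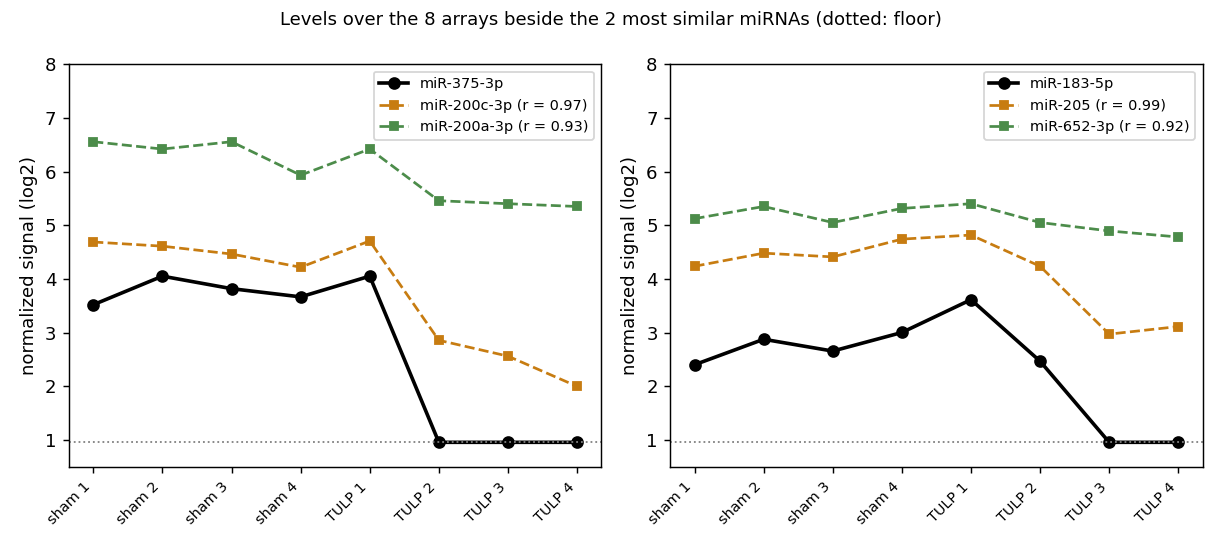
Normalized signal (log2, vertical axis) on the 8 arrays for miR-375-3p beside miR-200c-3p and miR-200a-3p, and for miR-183-5p beside miR-205 and miR-652-3p, with the floor dotted. Lines join arrays only to guide the eye. TULP replicate 2 is low for miR-375-3p and miR-200c-3p (2.86), and within the range of the normalized sham values for miR-183-5p (2.47) and miR-205 (4.24).

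The 8 arrays shared 1 slide with 2 rows, which held the groups unevenly. Row 1 held 1 sham and 3 TULP arrays, with a difference of -1.68 for miR-375-3p and -0.66 for miR-183-5p. Row 2 held 3 sham and 1 TULP array, with differences of -2.84 and -1.69. The mean of both miRNAs was lower in TULP in both rows. The TULP array of row 2 was replicate 4, at the floor for both miRNAs, so the differences of that row are set by the floor. The sham array of row 1 was replicate 4, and TULP replicate 1 in that row lay above it for both miRNAs. With the row as a block the difference was -2.26 for miR-375-3p (SE 0.86, limma adjusted p = 0.115) and -1.17 for miR-183-5p (SE 0.66, limma adjusted p = 0.256).

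**Figure D4:**
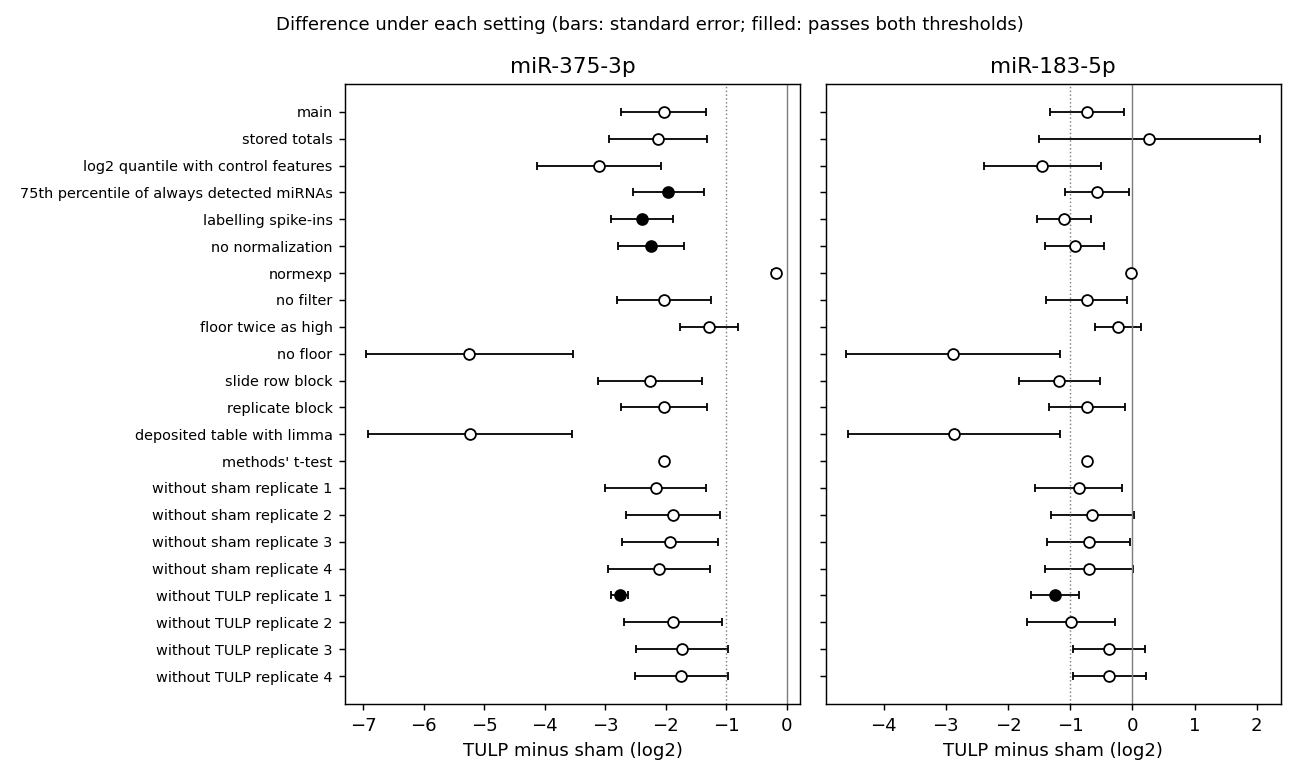
Difference between TULP and sham (log2, horizontal axis) for miR-375-3p and miR-183-5p under the main setting and each alternative, with bars for the standard error where the test gives one. Filled points pass an adjusted p under 0.05 with more than 2-fold (dotted line at -1). miR-375-3p lies below 0 in every setting drawn and passes in 4 of the alternatives, and miR-183-5p passes in the one without TULP replicate 1. Most settings use the same detection calls and are not independent.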

How the data were processed

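Arrays of 4 sham and 4 TULP rats were read. Per the file headers, spot intensity was extracted and background subtracted on a linear scale by the authors with Agilent Feature Extraction 10.7.1.1, with no normalization between arrays. The authors also deposited a table of quantile normalized log2 values, used as an alternative (median of each column -3.32, order of detected miRNAs as in the rebuilt totals). The total of a miRNA was rebuilt as the sum of its probe totals over 3 times their error, otherwise 0.1, since stored totals could exceed the probe totals. This rule gave the files' detection calls with 0 mismatches. Totals were quantile normalized over 758 rat miRNAs, raised to a floor of 1.94 (the median over arrays of the lowest detected signal) and converted to log2. The 151 miRNAs detected on at least 4 of 8 arrays went into 1 linear model with group as its term (limma 3.58.1, R 4.3.3, eBayes, Benjamini-Hochberg adjustment). The fit was tested on simulated data. Single values were compared by exact two-sided permutation over the 70 labellings of the arrays. The miRNAs named were the members, the lists, and the 5 tested miRNAs most correlated with each tested member. Members and lists were chosen with earlier results of these data known. The summed detected signal was 21075 to 37357 in sham and 16787 to 19464 in TULP arrays. The number of arrays limits the precision. 0 spots of rat miRNAs were saturated.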

Additional observations from a re-analysis of the deposited data

Results flagged for a closer look

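Of 24 groups of 4 arrays examined for a single distant array, 3 held one, all of them miR-375-3p in TULP replicate 1. The 3 measures come from the same spots and are not independent. Chance marks about 1 in 20 groups, a rate that applies to the probe total alone, because the other 3 values of the normalized level and of the share are equal by construction. Its normalized level there was 4.05 on the log2 scale, against 0.96 in each of the other 3 TULP arrays, where the floor sets the value. Its share of the summed signal was 0.0672%, against 0 in the other 3. The total of its 15-base probe was 13.1, against 1.20 to 3.06. The cause was not tested.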

How the results depend on the processing

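The difference of miR-375-3p stayed negative under its 22 alternatives, at -0.18 to -5.24, with limma adjusted p-values of 7.54e-05 to 0.383. Most alternatives use the same detection calls, with TULP replicates 2, 3 and 4 undetected, so their shared sign is not independent support. The value of -5.24 came with no floor, where its size is set by the 0.1 given to undetected miRNAs. The value of -0.18 came with normexp. The difference of miR-375-3p passed both thresholds with the 75th percentile of the always detected miRNAs (-1.96), the labelling spike-ins (-2.39), no normalization (-2.24) and without TULP replicate 1. These settings called 6, 48, 29 and 10 of the 151 tested miRNAs as lower in TULP, against 6 in the main setting. The median difference of all tested miRNAs was -0.78 with the spike-ins and -0.55 with no normalization. Leaving out 1 array at a time gave -2.76 to -1.74 for miR-375-3p and -1.24 to -0.37 for miR-183-5p. miR-183-5p kept its sign in 21 of 22 alternatives and turned to 0.27 with the stored totals. Its share of signal differed by -0.0171 to 0.00055 percentage points on leaving out arrays (positive without TULP replicate 3 or 4) and by 0.484 with the stored totals. Against the epithelial mean it spanned -0.41 to 0.051 on leaving out arrays, with 0.0081 without sham replicate 4. The normexp fit over all rat miRNAs, the comparison with the epithelial mean, the raw probe totals and the rescaled lists were chosen after seeing the data. The count of 14 calls moved to 53 with the spike-ins, 34 with no normalization, 2 with normexp (2 also over all rat miRNAs), 4 with no filter and 8 with detection on all arrays, and to 10 to 22 on leaving out arrays, 22 without TULP replicate 1. The replicate numbers did not pair the arrays, with correlations of 0.13, -0.10, 0.27 and -0.10 for numbers 1 to 4. With the replicate block the difference of miR-375-3p was -2.03 (limma adjusted p = 0.104) and that of miR-183-5p -0.74 (adjusted p = 0.487), with 11 calls. Scaling to the 75th percentile of all rat miRNAs was not run, because that percentile is an undetected value on all 8 arrays. Signal over background is a limit for the members, since 5 of the 7 were detected on at most 1 array.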
